A study of Homo sapiens with 9 samples.

Results

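The mRNAs of the large-subunit ribosomal proteins were followed in RNA recovered with the CCR4-NOT complex from HEK293T cells, a human embryonic kidney line. Members were the protein-coding genes whose symbol begins with RPL or RPLP and a number: 53 of 30956 genes in the table. They comprised 46 core members, which encode the proteins of the cytosolic large subunit, and 7 paralogs (RPL3L, RPL7L1, RPL10L, RPL22L1, RPL26L1, RPL36AL and RPL39L).

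RNA immunoprecipitation sequencing (RIP-seq) used V5-tagged CNOT7, a nuclease subunit of CCR4-NOT, with the D40A change that impairs its catalysis. The question of the comparison was which RNAs associate with the complex. The labels list 3 RIP samples and 6 input samples, all labelled cytoplasmic RNA; doxycycline (3 µg/mL, 24 h) was given for 3 of the inputs and withheld for the other 3. The table names 3 RIP columns and 3 input columns. Whether those inputs, or the RIP cells, had received doxycycline is not stated. Recovery that does not depend on the tag has no control among these libraries and was not subtracted.

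CCR4-NOT shortens the poly(A) tails of mRNAs and so starts their decay. Ribosomal protein mRNAs are abundant and long-lived, and most begin with a 5′ terminal oligopyrimidine (TOP) tract, a C at the first base followed by a run of C and T. This tract places their translation under the growth-sensing kinase mTOR and the TOP-binding protein LARP1. Several core genes have paralogs, retained copies whose protein can replace the parent in the ribosome or, as for RPL7L1, acts in ribosome assembly.

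The annotated first bases of these genes show the tract that most core members share. The lines below start 10 bases before a RefSeq start of the gene and end 20 bases after it (GRCh38.p14). Capitals mark the unbroken run of C and T from that start. For RPL26L1 the start lies inside the gene's RefSeq span, which begins at 172954094. The set holds 3 P-stalk genes, 3 pairs of a parent and its paralog, the parent RPL39 and the paralog RPL7L1, and was chosen with their values known.
RPLP1 (chr15:69452808-69452837, plus strand): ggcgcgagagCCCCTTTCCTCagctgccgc
RPLP2 (chr11:809957-809986, plus strand): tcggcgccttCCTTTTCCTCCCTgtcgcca
RPL12 (chr9:127451387-127451416, minus strand): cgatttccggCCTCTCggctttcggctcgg
RPL22 (chr1:6199576-6199605, minus strand): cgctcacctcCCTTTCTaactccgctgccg
RPL22L1 (chr3:170870176-170870205, minus strand): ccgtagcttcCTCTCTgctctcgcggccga
RPL26 (chr17:8383174-8383203, minus strand): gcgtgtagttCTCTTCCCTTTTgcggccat
RPL26L1 (chr5:172958719-172958748, plus strand): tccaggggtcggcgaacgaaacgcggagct
RPL36A (chrX:101391001-101391030, plus strand): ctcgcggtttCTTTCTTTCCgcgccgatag
RPL36AL (chr14:49620607-49620636, minus strand): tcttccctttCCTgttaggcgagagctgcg
RPL39 (chrX:119791611-119791640, minus strand): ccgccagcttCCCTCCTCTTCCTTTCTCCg
RPL7L1 (chr6:42879606-42879635, plus strand): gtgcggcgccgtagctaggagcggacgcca

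Of the 53 members, 43 matched a RefSeq promoter by symbol, 38 of them core and 5 paralogs. A C at the start followed by at least 4 bases that are each C or T, read on the gene's strand, was present in 25 of the 38 core promoters (65.8%). It was present in 4.04% of all 27305 promoters of the same length and in 5.21% of the 11884 that belong to tested genes. With the run allowed to begin up to 5 bases either side of the start, the shares were 81.6% of core promoters and 21.1% of all. Among paralogs, RPL22L1 alone held the run at the start, and RPL36AL had it only within 5 bases. Absence of the run says only that these letters are not at this annotated start. For RPL6, RPL27, RPL32 and RPL26L1, all without the run, the start read lies inside the gene's RefSeq span, not at its outer end.

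The libraries held 37140622 to 40764899 reads in genes in RIP and 37290120 to 38918356 in input. RIP replicate 2 stood apart in rarely read genes: 14786 genes had no read in it, against 6398 to 12079 in the other 5 libraries. No pair of libraries of a group agreed within sampling noise (chi-square per degree of freedom 31.98 to 92.6). All values below are normalized counts, gene counts divided by the authors' size factors, unless a share or difference is named. Because a gene's length scales its count, counts are not compared between genes. Differences are RIP minus input on the log2(normalized count + 1) scale, tested with limma across 16765 genes with a mean of at least 10. A gene is called at a Benjamini-Hochberg adjusted p under 0.05.

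Core large-subunit mRNAs were lower in RIP than in input without exception among the 46. Of the 51 members tested, 49 were lower, 0 were higher and 2 were not called, while 21.2% of all genes tested were lower, 22.4% higher and 43.6% called in either direction. Every RIP library lay below every input library for the same number of members, 49, against 27.3% of all genes tested (27.4% had every RIP library above every input). The authors' deposited table also had 49 members lower, against 19.9% of its 20649 genes with an adjusted p. The median difference of the 46 core members was -1.94, and that of all genes tested was -0.043. Core values ran from -3.46 to -1.41, and 42 of the 46 lay within 0.5 of their median. As ratios of means, input exceeded RIP 2.65-fold (RPL17) to 6.39-fold (RPL36A). Without RIP replicate 2, 49 members were again lower and the core median was -1.94.

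**Figure D1:**
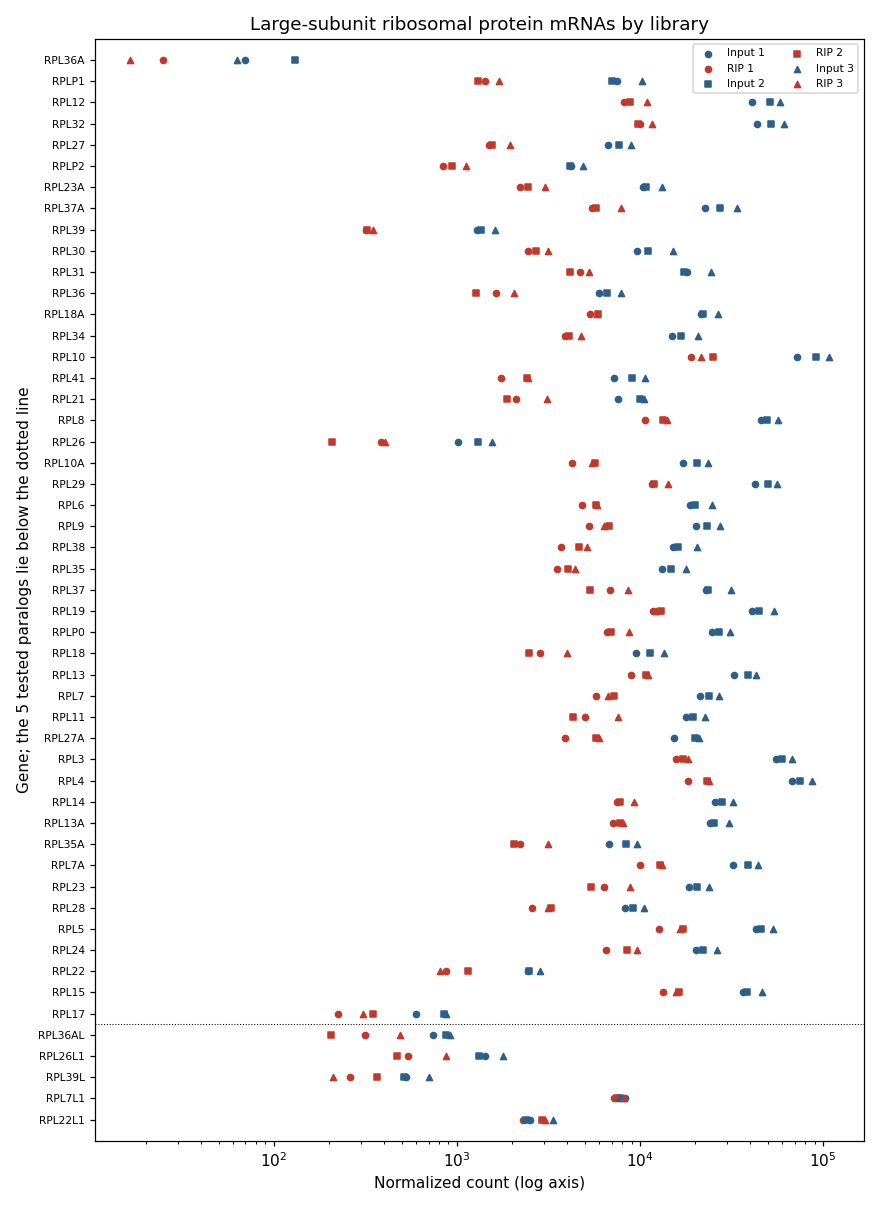
Normalized count (log axis) of each of the 51 tested genes in the 3 RIP (red) and 3 input (blue) libraries, 1 point per library; core members are ordered by their difference, and the 5 tested paralogs lie below the dotted line. Red points lie left of blue for all core members and 3 paralogs, and overlap for RPL7L1 and RPL22L1; the RIP replicate 2 value of RPL36A is 0 and has no point on a log axis.

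The core members together took a smaller share of reads in RIP. Their share of all reads in genes was 0.878%, 1.02% and 1.13% in the RIP libraries and 2.45%, 2.64% and 2.93% in the inputs. The groups did not overlap (exact permutation test, two-sided, p = 0.1, the smallest p that 3 against 3 libraries allow). Mitochondrially encoded RNA took 18.6% to 26.6% of input reads and 0.931% to 1.12% of RIP reads, and without it the core share was 0.887% to 1.14% in RIP and 3.01% to 3.99% in input. With libraries scaled by their total over genes other than mitochondrial and small RNA genes, the core median was -1.81, with 49 members lower and 0 higher. Paralogs took 0.0345%, 0.0378% and 0.0428% of reads in RIP and 0.0333%, 0.0303% and 0.0319% in input, with every RIP value above every input value (exact permutation test, two-sided, p = 0.1). RPL7L1 and RPL22L1 held most of these reads in every library. In RIP replicate 1 they had 8690 and 2766 reads, against 313 to 650 for each of the other 3 tested paralogs, which were lower in RIP. Without mitochondrially encoded RNA, a choice made after seeing the data, the paralog shares overlapped. They were then 0.0349%, 0.0382% and 0.0433% in RIP and 0.0409%, 0.0393% and 0.0435% in input (exact permutation test, two-sided, p = 0.4).

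The P-stalk, the flexible arm that recruits translation factors to the ribosome, held 3 of the 6 lowest differences. All 4 of its genes with its base were lower, with a median difference of -2.31. RPLP1, an acidic stalk protein, had 1422, 1302 and 1700 counts in RIP replicates 1 to 3 and 7531, 7081 and 10245 in the inputs. Its difference was -2.48 (SE 0.16, limma adjusted p = 8.0e-07), the lowest among core members apart from the sparsely read RPL36A. RPLP2, its partner in the stalk dimers, had 841, 938 and 1119 in RIP and 4214, 4162 and 4888 in input, a difference of -2.20 (SE 0.15). RPL12, which sits at the base of the stalk, had 8219, 8829 and 10961 in RIP and 40962, 51551 and 58489 in input, a difference of -2.43 (SE 0.16). RPLP0, the protein that anchors both dimers, was nearer the core median, with 6619, 6918 and 8768 in RIP, 24895, 27064 and 31108 in input and a difference of -1.90 (SE 0.14). In all 4 the highest RIP library was well short of the lowest input.

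RPL5 and RPL11, which with 5S rRNA form the particle that also binds the p53 inhibitor MDM2, were both lower. RPL5 had 12636, 17200 and 16519 counts in RIP and 43116, 45872 and 53341 in input, a difference of -1.63 (SE 0.15). RPL11 had 5013, 4324 and 7573 in RIP and 17879, 19598 and 22539 in input, a difference of -1.86 (SE 0.18). Their 95% intervals, -1.94 to -1.31 and -2.26 to -1.46, overlap that of RPLP0 (-2.20 to -1.60).

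Proteins that line the peptide exit tunnel or its rim (RPL4, RPL17, RPL39, RPL19, RPL23A, RPL26, RPL31 and RPL35) were all lower, with a median of -1.97. RPL23A, a docking site at the exit, had the lowest difference among them, -2.17 (SE 0.14), and RPL17 the highest, -1.41 (SE 0.26). RPL39, a short protein inside the tunnel, had 319, 321 and 349 in RIP and 1288, 1354 and 1608 in input, a difference of -2.10 (SE 0.19). RPL17, a tunnel protein read at low counts, had 224, 348 and 307 in RIP and 601, 850 and 873 in input. RPL26 had 387, 208 and 403 in RIP and 1020, 1301 and 1563 in input, a difference of -1.996 (SE 0.28). The lowest input library of RPL17 and RPL26 still exceeded the highest RIP library.

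Proteins near the transfer RNA sites and the peptidyl transferase centre (RPL3, RPL8, RPL10 and RPL36A) were lower as well. RPL10, joined to the subunit late in its assembly, had 18986, 25129 and 21531 in RIP and 71726, 91021 and 107308 in input, a difference of -2.03 (SE 0.17). RPL3, which reaches toward the catalytic centre, had 15648, 17292 and 18307 in RIP and 55348, 59596 and 67823 in input, a difference of -1.83 (SE 0.13). RPL8 had a difference of -2.004 (SE 0.14).

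RPL36A, an E-site protein, was the core member with the largest difference and the least certain one. It had 24.8, 0 and 16.5 normalized counts in RIP and 69.9, 131 and 62.8 in input, so the groups did not overlap but each value rested on few reads. The difference was -3.46 (SE 1.22, 95% interval -6.12 to -0.80, limma adjusted p = 0.037), and its adjusted p ran from 0.0049 to 0.147 over the alternatives. Without RIP replicate 2, which had no read of it, the difference was -1.99. It was not called without any 1 of the 3 inputs (limma adjusted p = 0.089, 0.147 and 0.081), with edgeR (0.119), with the total-count scaling (0.063), with a pseudocount of 0.5 (0.051) or with no filter (0.093). Annotated RPL36A pseudogenes held 119 counts in input on average, 136% of the 88.0 at the gene.

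Among the remaining core genes RPL27 and RPL32 were near the lower end of the differences and RPL15, RPL22 and RPL24 near the upper end. RPL27 had 1495, 1563 and 1953 in RIP and 6716, 7730 and 8959 in input, a difference of -2.22 (SE 0.15). RPL32 had 9993, 9751 and 11611 in RIP and 43622, 51761 and 61561 in input, a difference of -2.31 (SE 0.14). RPL15 had 13365, 16313 and 15738 in RIP and 36523, 38671 and 46229 in input, a difference of -1.42 (SE 0.13). The 95% interval of RPL32 (-2.63 to -1.9997) and that of RPL15 (-1.71 to -1.12) do not overlap. Both genes were picked from opposite ends of the ranking of these differences, and a difference between them was not tested. RPL24, which bridges the subunits, had 6497, 8515 and 9615 in RIP and 20310, 22236 and 26426 in input, a difference of -1.50 (SE 0.16). RPL22 had 868, 1148 and 804 in RIP and 2447, 2476 and 2850 in input, a difference of -1.48 (SE 0.17). Diamond-Blackfan anaemia is an inherited failure of red cell production. A chosen list of 8 core genes mutated in it held RPL5, RPL11, RPL15, RPL18, RPL26, RPL27, RPL35 and RPL35A. These listed genes spanned -2.22 to -1.42 with a median of -1.88, close to the core median.

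**Figure D2:**
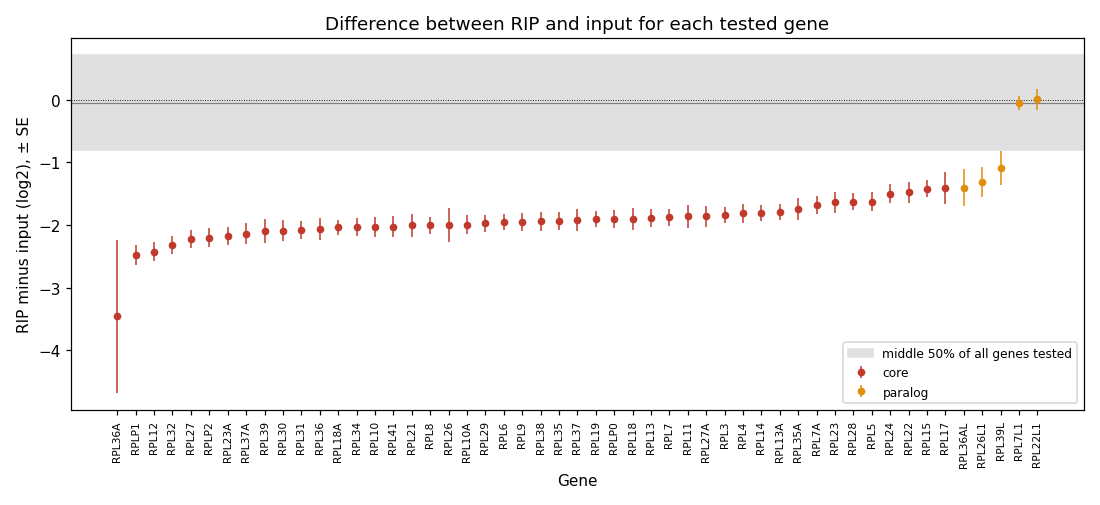
Difference between RIP and input (log2, ± SE from limma, n = 3 and 3 libraries) for the 51 tested genes in order, core members in red and paralogs in orange; the grey band holds the middle 50% of all 16765 genes tested. All 46 core members and 3 paralogs lie below the band, and RPL7L1 and RPL22L1 lie within it.

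RPL7L1 and RPL22L1 were the 2 tested members not called in either direction. RPL7L1, a nucleolar relative of RPL7 that acts in ribosome assembly, had 7196, 7529 and 8208 counts in RIP and 8309, 7827 and 7666 in input. The groups overlapped and the difference was -0.055 (SE 0.11, 95% interval -0.30 to 0.19, limma adjusted p = 0.722). Its parent RPL7 had 5721, 7235 and 6719 in RIP and 21411, 23871 and 26947 in input, a difference of -1.88 (SE 0.13, 95% interval -2.16 to -1.59). The paralog's interval thus lies wholly above that of the parent.

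RPL22L1, a close paralog of RPL22 whose level RPL22 protein holds down, had 2290, 2922 and 3039 counts in RIP and 2508, 2375 and 3350 in input. The difference was 0.0091 (SE 0.16, 95% interval -0.35 to 0.37, limma adjusted p = 0.968). The interval of its parent RPL22 was -1.84 to -1.11. As printed above, both genes begin with C and a run of C and T, CCTTTCT for RPL22 and CTCTCT for RPL22L1, while RPL7L1 has no such run. Under total-count scaling, which places the median of all genes at 0.44, RPL7L1 (0.44, adjusted p = 0.014) and RPL22L1 (0.50, adjusted p = 0.021) were called higher in RIP. Over all alternatives the adjusted p ran from 0.014 to 0.949 for RPL7L1 and from 0.021 to 0.993 for RPL22L1.

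The other 3 tested paralogs were lower in RIP, by less than most core members. RPL26L1 had 538, 472 and 869 in RIP and 1432, 1319 and 1792 in input, a difference of -1.31 (SE 0.23, limma adjusted p = 0.00064). RPL36AL had 315, 206 and 490 in RIP and 738, 876 and 915 in input, a difference of -1.40 (SE 0.29, limma adjusted p = 0.0020). With all 6 inputs as 1 group, a choice made after seeing the data, RPL36AL had a log2 ratio of group means of -0.79. That measure differs from the mean log2 difference of -1.40. As a ratio of means, the listed inputs exceeded RIP 2.50-fold. Its derived mean in the 3 inputs without a column was 321, below its RIP mean of 337. RPL36AL was thus lower against the listed inputs (mean 843) only. RPL39L, a testis-biased relative of RPL39, had 259, 365 and 209 in RIP and 529, 515 and 706 in input. Its difference was -1.09 (SE 0.28, limma adjusted p = 0.00685), the smallest among the called members. Under total-count scaling RPL39L was -0.60 and not called (adjusted p = 0.093, from 0.00010 to 0.093 over the alternatives).

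RPL3L, a striated muscle paralog, and RPL10L, a testis retrogene, had too few reads to test. RPL3L had 16, 1 and 10 reads in the RIP libraries and 0, 0 and 14 in the inputs. RPL10L had 2 reads in RIP replicate 3 and 0 in the other 5 libraries. A count of 0 allows up to 3 reads, which is 0.0736 to 0.0808 CPM in these libraries, for counting error only.

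The ratio of each paralog to its parent, taken within a library, was compared between the groups; the ratio is not corrected for length, and only its change between groups is read. RPL7L1 over RPL7 was 1.26, 1.04 and 1.22 in RIP and 0.388, 0.328 and 0.285 in input, 3.53-fold higher in RIP. RPL22L1 over RPL22 was 2.64, 2.54 and 3.78 in RIP and 1.03, 0.959 and 1.18 in input, 2.80-fold higher in RIP. RPL39L over RPL39 was 0.814, 1.14 and 0.601 in RIP and 0.411, 0.381 and 0.439 in input, 2.01-fold higher in RIP. Every RIP library lay above every input in these 3 pairs (exact permutation test, two-sided, p = 0.1 each, the smallest possible, adjusted p = 0.167 over 5 pairs). The exact test cannot go below 0.1 with these libraries, whatever the size of the difference. RPL26L1 over RPL26 overlapped: 1.39, 2.27 and 2.15 in RIP and 1.40, 1.01 and 1.15 in input (log2 difference 0.69, SE 0.26, exact permutation p = 0.2, adjusted p = 0.2). RPL36AL over RPL36A differed by 2.06 on the log2 scale (SE 1.25, exact permutation p = 0.2, adjusted p = 0.2), and by 0.89 without RIP replicate 2, where RPL36A had no read.

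**Figure D3:**
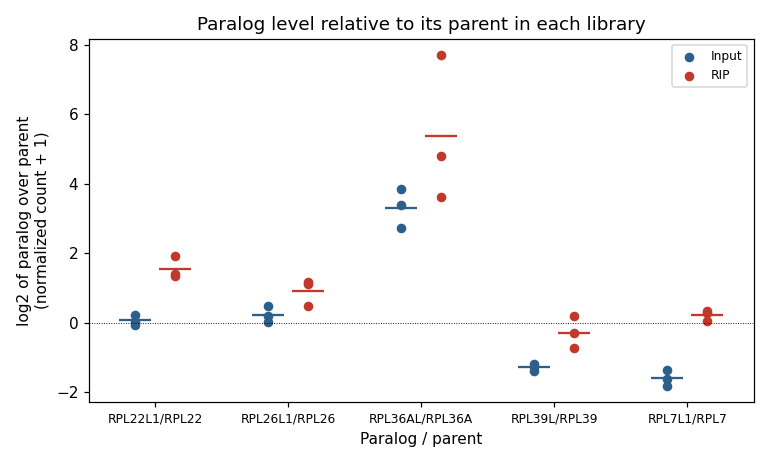
log2 of paralog over parent (normalized count + 1) in each library, inputs in blue and RIP in red, with a line at the mean of 3 libraries. RIP points lie above all inputs for RPL22L1/RPL22, RPL39L/RPL39 and RPL7L1/RPL7, and overlap the inputs for RPL26L1/RPL26 and RPL36AL/RPL36A.

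The core members varied together within each group. Input replicate 3 was the highest input for 45 of the 46 and input replicate 1 the lowest for 42. RIP replicate 3 was the highest RIP library for 34 and RIP replicate 1 the lowest for 33. The coefficient of variation over 3 libraries had a median of 14.5% in RIP and 14.5% in input. The mitochondrially encoded share of reads was also lowest in input replicate 1 (18.6%) and highest in input replicate 3 (26.6%), and its part in this order of libraries was not tested. Across the core members the input mean and the difference had a Spearman correlation of 0.19 (n = 46 genes in the same libraries), which without RPL36A was 0.13. The 25 core genes with the C and T run at the annotated start had a median difference of -1.97 and the 13 without it -1.90.

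Processed pseudogenes, copies of the mRNA reinserted in the genome, can share short reads with these genes. The table held 548 RPL pseudogenes, of which 62 passed the filter. Of these 21 were lower (33.9%, against 21.2% of all genes tested), 1 was higher and 40 were not called. Their median difference was -1.97, and every RIP library lay below every input for 44 of the 62, against 27.3% of all genes tested. The filter used the mean over both groups, so a sparsely read pseudogene could pass through its input counts alone. That can favour a lower direction, and no conclusion is drawn from these counts or their median. Reads of all 548 pseudogenes were 0.00536% to 0.00590% of RIP and 0.0111% to 0.0131% of input. For 43 of the 46 core members the pseudogenes held at most 10% of the gene's input count, the exceptions being RPL36A, RPL39 (12.0%) and RPL17 (10.2%). With pseudogene reads added to each gene, an alternative chosen after seeing the data, the core median was -1.94, every RIP library remained below every input for 46 of 46, and RPL36A, RPL26 and RPL23A moved by more than 0.1.

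All 32 small-subunit ribosomal protein genes were lower in RIP, with a median of -1.97, next to -1.94 for the large-subunit core. Near the lower end RPS21 had -2.36 (SE 0.16), and near the upper end the paralog RPS27L had -1.35 (SE 0.23). Of 28 tested translation factors and related genes with TOP mRNAs, 25 were lower (89.3%, against 21.2% of all genes tested), 1 was higher and 2 were not called (median -1.41). FAU, which encodes a ribosomal protein fused to a ubiquitin-like protein, was the lowest at -2.29 (SE 0.17). The cap-complex helicase EIF4A2 was the member that was higher, at 0.89 (SE 0.12), and PABPC4, a poly(A)-binding protein, had -0.27 (SE 0.11, adjusted p = 0.057, limma).

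Factors that assemble the large subunit had a median of -0.42, nearer that of all genes tested (-0.043) than the core median was. Of 56 tested assembly factors 25 were lower, 6 were higher and 25 were not called. These are 44.6% lower and 10.7% higher, against 21.2% and 22.4% of all genes tested. NOP53, which directs trimming of a pre-ribosomal RNA, had -1.59 (SE 0.20) and the processing factor LAS1L -1.31 (SE 0.14). At the other end NOP16 had 0.9998 (SE 0.18) and the helicase DDX55 0.94 (SE 0.15). Of 47 tested mitochondrial large-subunit ribosomal protein genes 31 were lower (66.0%), 3 were higher (6.38%) and 13 were not called (median -0.71), against the same 21.2% and 22.4%. They ranged from -3.93 (MRPL54, SE 1.35, with no read in RIP replicate 2) and -1.98 (MRPL41) to 0.86 (MRPL50) and 1.03 (MRPL44).

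Among 19 regulators of TOP mRNAs, 8 were lower (42.1%, against 21.2% of all genes tested), 3 were higher (15.8%, against 22.4%) and 8 were not called, with a median of -0.25. EIF4EBP1, an mTOR target that represses cap-dependent translation, had -1.88 (SE 0.17), and SSB, the La protein, had -1.37 (SE 0.14). TSC1, an inhibitor of mTOR signalling, had 0.47 (SE 0.11) and the RNA-binding protein LARP4B 0.56 (SE 0.11). Differences between the lists were not tested.

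**Figure D4:**
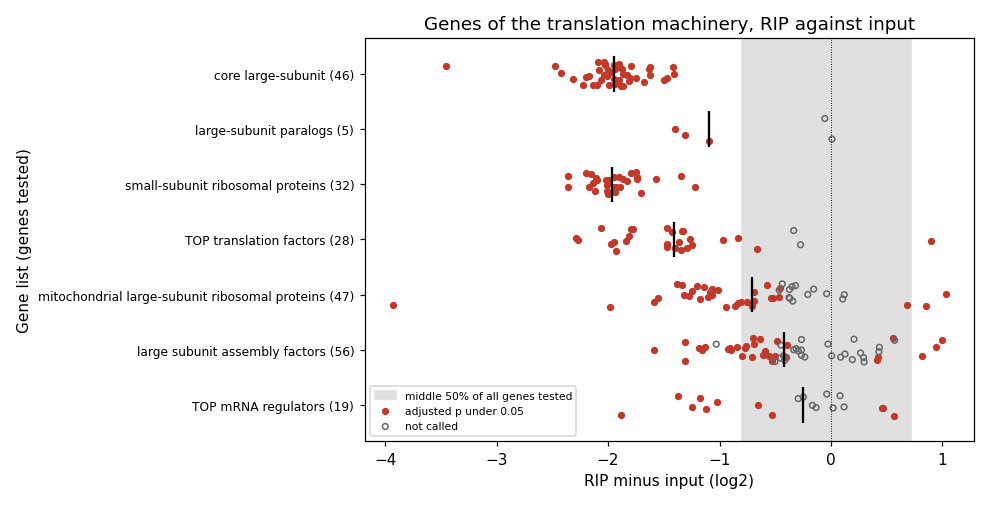
Difference between RIP and input (log2) for each tested gene of 7 lists, filled red where the limma adjusted p was under 0.05 and open where it was not; black bars are list medians and the grey band holds the middle 50% of all genes tested. Both cytosolic ribosomal protein lists lie left of the band with medians of -1.94 and -1.97, while assembly factors and TOP regulators spread across it.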

How the data were processed

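Ribosomal RNA was depleted from HEK293T RIP and input RNA, and single ends of 75 bp were read, per the labels' protocols. The submitters' processing notes name STAR, featureCounts, DESeq2 and GRCh38; the sources used here give no version, annotation release or strand setting. Deposited values are a signal, read counts divided by the authors' size factor for the library: 100% of values were whole multiples of the column's smallest value within 0.01 of a read, so whole reads were recovered. The authors' deposited log2 fold, its SE (an other value) and the adjusted p-value served as an alternative. In that authors' deposited table the log2 folds of tested members lay within 0.0795 of those used here, except RPL36A at -2.68.

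The 3 input columns match the labels of both kinds of input and were taken as input, with no treatment assigned. A pseudocount of 1 and a minimum mean of 10 were used with limma 3.58.1 (R 4.3.3), trend and two-sided tests, after a test on simulated data. Alternatives were other pseudocounts, filters and scalings, edgeR 4.0.16, DESeq2 1.42.0, the authors' table, a replicate block and each library left out. Since the labels do not state separate cultures, the spread behind each p-value may be technical. Named genes were the paralogs and parents, the P-stalk, RPL5, RPL11, the 5 lowest and 5 highest core members, and the 2 lowest and 2 highest of other lists; further core genes were named after their values were seen, and some genes of the other lists are not reported here. Members and lists were chosen with earlier results of these data known. Positions and start sequences are RefSeq's (GRCh38.p14).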

Additional observations from a re-analysis of the deposited data

How the results depend on the processing

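Of the 51 tested members, 47 kept their direction and their side of the threshold under each of 17 alternatives that gave them a test; RPL36A, RPL39L, RPL7L1 and RPL22L1 did not. Total-count scaling gave 1653 genes lower and 6149 higher, 78.8% higher against 51.4% with the authors' size factors. It placed the core median at -1.45, left 47 members lower and called 2 higher, RPL7L1 turning from -0.055 to 0.44. With all 6 inputs as 1 group, chosen after seeing the data, the core median was -2.11. This value is a median of log2 ratios of group means, not of mean log2 differences. Left-out libraries gave 48 to 49 members lower and a core median of -2.05 to -1.83, with RPL36A as the member lost. Same-numbered RIP and input columns had correlations of deviations of 0.255, 0.0025 and 0.239 across 12370 genes. Each RIP library correlated best with its own number, though the second pair was under 0.1. Deviations from a group mean cancel within the group, so these correlations are not independent of each other. Whether same-numbered columns come from the same cells cannot be told from them. With the replicate block 48 members were lower, 3925 genes lower and 4053 higher, and RPL36A was not called (adjusted p = 0.052, limma). RPL36A, RPL3L and RPL10L had few reads.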

Other observations

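The deposited mean normalized count was taken as an average over 9 libraries. Times 9, it was below the sum of the 6 listed columns for 0 genes, but an average over those 6 would pass this check too. From the deposited mean, the mean of the 3 inputs without a column was derived, with no SD and no test. For RPL10L the derived mean was 2.1e-15, where an average over the 6 would leave a value of the order of its counts. Core members were higher in the inputs without a column than in the listed inputs for 42 of 46 genes. Their median ratio was 1.23 (0.896 for RPL39 to 1.58 for RPL41), against a median ratio of 1.0035 over all genes tested. RPL36AL went the other way, with 321 normalized counts against 843 in the listed inputs, a ratio of 0.381.

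Small nucleolar RNAs (snoRNAs), which guide chemical modification of ribosomal RNA, lie within the RefSeq span of 20 members. Of 41 such snoRNAs 7 were in the table and 2 passed the filter. Both reached the mean of 10 through their input counts, with every RIP value under 10. The filter thus favoured a lower direction for them, and no conclusion is drawn from it. SNORA66, inside RPL5, had 4.14, 0 and 6.27 normalized counts in RIP and 24.0, 73.1 and 53.5 in input, a difference of -3.80 (limma adjusted p = 0.034), and was lower. SNORA3B, inside RPL27A, had 4.97, 0 and 7.84 in RIP and 12.5, 18.3 and 30.2 in input, a difference of -2.42 that was not called (limma adjusted p = 0.223). The other 5 in the table had too few reads to test. SNORD4A, inside RPL23A, had 4.14, 23.1 and 4.70 normalized counts in RIP and 0 in each input. SNORA72 (inside RPL30) and SNORA70 (inside RPL10) had reads in RIP only, at most 4.47 and 3.92 normalized counts, and SNORA65 and SNORD83A had low counts in both groups. Reads of a host intron and of its snoRNA cannot be told apart in these counts.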
